A study of Mus musculus with 8 samples.

Results

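The 9 genes described here, Cd79a, Cd79b, Ms4a1, Pax5, Blk, Bank1, Cd22, Fcrl5 and Cr2, are genes of B cells, and they were measured in cultures of mouse peritoneal cells that the labels call peritoneal macrophages. They were taken by name through the RefSeq identifiers of the gene probes, and all 9 were found among the 20887 named genes of the array. Of these, 4 had a pair of probes and the rest a single one, and the probe brightest over all arrays stood for the gene. Cells were washed out of the peritoneal cavity of C57BL/6 mice, cultured for 24 h, washed 3 times to take off cells that had not attached, and then left unstimulated or given LPS, a bacterial cell wall component that activates Toll-like receptor 4, at 1 μg/ml for 1, 4 or 24 h. The KO cells came from LysMCre-fur(fl/fl) mice, in which Cre under the Lyz2 (LysM) promoter deletes the loxP-flanked gene of the protease furin in myeloid cells and not, by design, in B cells. The WT cells came from littermates. The ages of the mice and the number of mice behind an RNA sample are not given in the sources used here. RNA of KO and WT cells of a time point shared a 2-colour Agilent array, with 2 arrays per time point and 8 in all. On the arrays of replicate 1 the KO RNA was in the Cy5 dye and on those of replicate 2 in Cy3, so replicate number and dye orientation cannot be told apart in a KO/WT ratio.

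B cells recognise antigen through the B cell receptor, a membrane immunoglobulin joined to the signalling pair encoded by Cd79a and Cd79b. Kinases of the Src family such as Blk phosphorylate this pair, the adaptor Bank1 joins in downstream, the complement receptor Cr2 lowers the threshold, and Cd22 and Fcrl5 carry inhibitory motifs. Pax5 is the transcription factor that keeps B cell identity and is shut down when a B cell turns into a plasma cell, and Ms4a1 encodes the CD20 surface protein. The peritoneal cavity is a known home of B cells, many of them of the B-1 type. B cells themselves carry Toll-like receptor 4 and answer LPS by activation and antibody secretion.

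The sequence before the start of a gene is where such transcription factors can bind, and it is shown for 4 of the members that take different courses below: Cd79a and Cd22 fell at 4 h, Pax5 rose and Fcrl5 passed in neither direction. The stretches run from 250 bases before to 50 bases after the RefSeq start on build GRCm38.p6, written 5′ to 3′ on the strand of the gene. They lie at chr7:24897247-24897546 (plus strand), chr7:30878979-30879278 (minus), chr4:44710645-44710944 (minus) and chr3:87435532-87435831 (plus). The reference table held such a stretch for 6 of the 9 members. Capitals mark the only matches among these 6 to any of 3 motifs searched on both strands, which were the core of the EBF motif CCCNNGGGA, the octamer ATGCAAAT and an NF-kB motif GGGANTTCC.
Cd79a: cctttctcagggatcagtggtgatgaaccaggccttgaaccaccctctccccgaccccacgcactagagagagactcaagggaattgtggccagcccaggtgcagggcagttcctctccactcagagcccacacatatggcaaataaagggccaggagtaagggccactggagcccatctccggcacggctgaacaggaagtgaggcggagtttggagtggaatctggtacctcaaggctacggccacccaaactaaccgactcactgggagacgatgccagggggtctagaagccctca
Cd22: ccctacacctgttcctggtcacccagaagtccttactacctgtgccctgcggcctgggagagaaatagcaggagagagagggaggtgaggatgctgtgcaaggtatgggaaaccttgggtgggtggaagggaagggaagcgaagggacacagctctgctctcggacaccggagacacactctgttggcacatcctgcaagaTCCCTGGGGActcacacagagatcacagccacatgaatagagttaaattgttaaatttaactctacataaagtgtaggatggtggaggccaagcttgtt
Pax5: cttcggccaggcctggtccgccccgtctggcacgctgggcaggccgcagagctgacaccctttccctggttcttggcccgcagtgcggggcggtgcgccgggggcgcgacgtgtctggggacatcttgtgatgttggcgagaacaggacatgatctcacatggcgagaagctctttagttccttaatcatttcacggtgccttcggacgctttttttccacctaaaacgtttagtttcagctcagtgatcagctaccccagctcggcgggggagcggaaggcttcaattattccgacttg
Fcrl5: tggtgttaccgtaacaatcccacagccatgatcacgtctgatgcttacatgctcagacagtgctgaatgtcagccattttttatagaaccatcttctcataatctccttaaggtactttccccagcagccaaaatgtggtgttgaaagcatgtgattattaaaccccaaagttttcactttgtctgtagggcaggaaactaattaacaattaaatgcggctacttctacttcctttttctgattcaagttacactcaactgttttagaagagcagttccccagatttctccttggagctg
The matches lie in the Cd22 stretch, from 48 to 40 bases before the start on the gene's strand and from 49 to 41 on the other, and overlap. Of all 32851 stretches of this length in the table, 6.56% held the EBF motif, 1.74% the octamer and 1.68% the NF-kB motif. The matches are letters in a window and were not tested as binding sites. Only exact matches to these letters were marked, so a stretch without capitals is not shown to lack a site of these factors.

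On the arrays as a whole, 43.8% to 51.3% of the gene probes were well above background in a channel (an array read in 1 dye). The furin gene, Furin, checks the labels. Its log2 KO/WT ratio was -0.59 and -0.85 on the unstimulated arrays, -0.56 and -0.55 after 1 h of LPS, and -0.59 and -0.69 after 24 h. At 4 h it was 0.0012 and 0.33, so neither 4 h array showed less Furin in the RNA labelled KO, and at that time the channel is named by its label only. All arrays lie on 1 slide that was scanned in 1 session. The unstimulated and 1 h arrays occupy 1 row of the slide and the 4 h and 24 h arrays the other, so slide row and LPS cannot be told apart in a comparison of 4 h or 24 h with unstimulated cells.

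All 9 members were well above background in all 16 channels, and none of their spots was saturated or marked as an outlier. Intensities of different probes are not set against each other here, since a probe's brightness depends on its own sequence. In bulk RNA, fewer B cells in a culture and less RNA of the gene per B cell cannot be told apart. Macrophage markers were bright as well, with 6 of 7 listed markers measured and each of those well above background.

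In WT cells at 4 h of LPS, Cd79b was 8.24-fold, Cd22 2.36-fold and Cd79a 1.70-fold lower than in unstimulated cells, and Pax5 was 1.45-fold higher. In cells labelled KO, Cd79b was 11.5-fold lower, and Cd22, Cd79a, Ms4a1, Bank1 and Blk fell as well, while Pax5 was again higher. Fcrl5 and Cr2 passed the test at no time point in either genotype. By 24 h Cd79a no longer differed from its start by the test, whereas Cd79b was still lower. No member passed at 1 h.

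**Figure D1:**
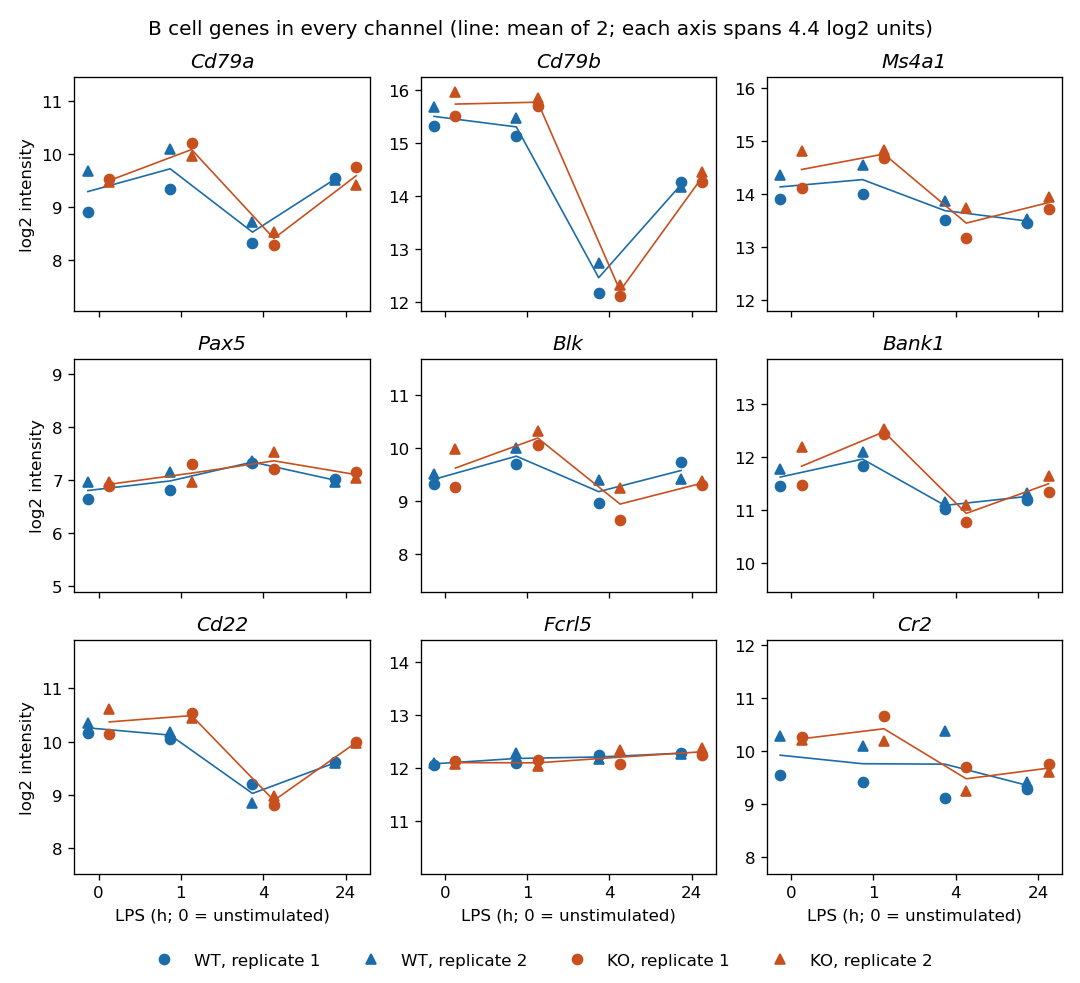
Each panel plots 1 member, with the log2 intensity of every channel against hours of LPS (0 is unstimulated), WT in blue and KO in orange, circles for replicate 1 and triangles for replicate 2. Lines join the means of the 2 channels of a genotype, all axes span the same 4.4 log2 units, and the largest swing is that of Cd79b, from 15.96 down to 12.10, while Fcrl5 keeps within 0.33.

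Of the 9 members, Cd79b of the signalling pair had the largest change at 4 h in both genotypes. The log2 intensity of Cd79b in WT cells was 15.32 and 15.67 without LPS, 15.13 and 15.46 after 1 h, 12.17 and 12.74 after 4 h, and 14.26 and 14.16 after 24 h, for replicates 1 and 2 in turn. In KO cells it was 15.49 and 15.96, then 15.68 and 15.84, then 12.10 and 12.31, and 14.26 and 14.44. All 4 channels at 4 h and all 4 at 24 h lay below all 4 unstimulated channels. At 4 h the log2 change was -3.04 ± 0.19 (SE, n = 2 arrays per time point) in WT and -3.52 ± 0.19 in the RNA labelled KO, with adjusted p-values of limma's separate-channel fit of 2.51e-08 and 6.59e-09. At 24 h it was -1.29 in WT and -1.37 in KO (adjusted p = 0.000139 and 8.33e-05), and the rise from 4 h to 24 h was 1.75 in WT and 2.15 in KO (limma adjusted p = 9.15e-06 and 1.35e-06).

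Cd79a, the partner chain, started at 8.90 and 9.67 in WT and stood at 9.34 and 10.09 after 1 h, 8.32 and 8.72 after 4 h, and 9.54 and 9.50 after 24 h. In KO the values were 9.52 and 9.47, 10.20 and 9.96, 8.28 and 8.52, and 9.76 and 9.41. The 4 channels at 4 h were the lowest of the 16, below every unstimulated channel, and those at 24 h overlapped the unstimulated ones. The change at 4 h was -0.76 ± 0.26 in WT and -1.09 ± 0.26 in the RNA labelled KO (limma adjusted p = 0.0333 and 0.00376). The WT call needed both the unstimulated replicate 2 array and the 4 h replicate 1 array: without the former the change was -0.38 (limma adjusted p = 0.397) and without the latter -0.57 (adjusted p = 0.237). From 4 h to 24 h Cd79a rose by 1.00 in WT and 1.18 in KO (limma adjusted p = 0.0086 and 0.00261). The WT rise was 0.80 without the 4 h replicate 1 array (limma adjusted p = 0.101) and 0.98 without the 24 h replicate 1 array (adjusted p = 0.0544). Both chains of the pair were thus lowest at 4 h, with the fall of Cd79b the larger of the changes in each genotype.

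Of the inhibitory receptors, Cd22 followed the signalling pair and Fcrl5 did not. Cd22 was at 10.17 and 10.35 in unstimulated WT cells, 10.05 and 10.19 after 1 h, 9.20 and 8.84 after 4 h, and 9.61 and 9.59 after 24 h. In KO cells it was at 10.13 and 10.61, 10.54 and 10.44, 8.81 and 8.97, and 10.00 and 9.97. No channel at 4 h or 24 h reached the lowest unstimulated channel. Its change at 4 h was -1.24 ± 0.15 in WT and -1.48 ± 0.15 in the RNA labelled KO (limma adjusted p = 1.39e-05 and 2.49e-06). At 24 h it was -0.66 in WT (adjusted p = 0.00377), and in KO it was -0.39, which missed the threshold (limma adjusted p = 0.0765) but passed without the unstimulated replicate 1 array (-0.62, adjusted p = 0.0123). Cd22 rose again from 4 h to 24 h by 0.58 in WT and 1.10 in KO (limma adjusted p = 0.00946 and 6.32e-05), and the WT rise missed the threshold without the 4 h replicate 2 array (0.40, adjusted p = 0.118), the 24 h replicate 1 array (0.57, adjusted p = 0.0659) or the 24 h replicate 2 array (0.59, adjusted p = 0.0576).

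Fcrl5, which in mice marks innate-like B cells, lay between 12.05 and 12.38 in all 16 channels. Its change at 4 h was 0.13 in WT and 0.10 in the RNA labelled KO, with 95% confidence intervals of -0.11 to 0.37 and -0.13 to 0.34. At 24 h all 4 channels were above the 4 unstimulated ones, by 0.20 in WT and 0.21 in KO on average, and neither passed (limma adjusted p = 0.216 and 0.208). With loess alone both did, at 0.47 and 0.49 (limma adjusted p = 0.0213 and 0.018), and the KO change passed with the software's processed signals (0.27, adjusted p = 0.0497) and with the mean of probes (0.27, adjusted p = 0.0337). The second probe of Fcrl5 was not well above background in any channel, so the level course rests on 1 probe.

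Ms4a1, which encodes CD20, was at 13.91 and 14.37 in unstimulated WT cells, 14.00 and 14.55 after 1 h, 13.51 and 13.87 after 4 h, and 13.46 and 13.52 after 24 h. In KO cells it was at 14.12 and 14.81, 14.68 and 14.84, 13.17 and 13.74, and 13.73 and 13.96. The 4 h channels were all below the unstimulated ones, the highest at 13.87 against 13.91, and those at 24 h overlapped them. Its 4 h change was -1.01 ± 0.25 in the RNA labelled KO (limma adjusted p = 0.00451) and -0.45 ± 0.25 in WT, which did not pass (adjusted p = 0.201). The KO change missed the threshold without the unstimulated replicate 2 array (-0.67, limma adjusted p = 0.0713) or without the 4 h replicate 1 array (-0.72, adjusted p = 0.0744). With the replicate number as a block, Ms4a1 passed in WT at 4 h (limma adjusted p = 0.0265) and at 24 h in both genotypes, where the changes were -0.64 in WT and -0.62 in KO (adjusted p = 0.00337 and 0.00436).

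The intracellular signalling genes Bank1 and Blk had their lowest means at 4 h in both genotypes. Bank1 read 11.46 and 11.78, 11.83 and 12.10, 11.03 and 11.15, and 11.20 and 11.32 in WT over the 4 time points, and 11.47 and 12.19, 12.43 and 12.53, 10.78 and 11.10, and 11.35 and 11.65 in KO. Every 4 h channel was below every unstimulated channel. Its 4 h change was -0.89 ± 0.20 in the RNA labelled KO (limma adjusted p = 0.0024) and -0.53 ± 0.20 in WT, just outside the threshold (adjusted p = 0.0511) and inside it with the replicate block (0.00594) and, at -0.85, with loess alone (0.00332). At 1 h Bank1 was 0.65 above unstimulated in KO, with a limma adjusted p of 0.0685 that became 0.00826 with the replicate block and 0.00606 without the unstimulated replicate 2 array, when the change was 1.01. A second Bank1 probe also read lower at 4 h, by -0.34 in WT and -0.62 in KO on average. From 4 h to 24 h Bank1 rose by 0.56 in KO (limma adjusted p = 0.0467), and this call was lost when any 1 of the 1 h, 4 h and 24 h arrays was left out, with changes of 0.40 to 0.72. It was also lost without background correction (0.55, limma adjusted p = 0.0504) and with the mean of all probes (0.57, adjusted p = 0.0789).

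Blk ranged from 8.64 to 10.32. In WT cells it read 9.32 and 9.50 without LPS and 8.96 and 9.39 at 4 h, and in KO cells 9.26 and 9.99 against 8.64 and 9.25. The groups overlapped. Its 4 h change passed in the RNA labelled KO (-0.68 ± 0.24, limma adjusted p = 0.0375) and not in WT (-0.23 ± 0.24, adjusted p = 0.541). With loess alone the WT change passed as well (-0.70, limma adjusted p = 0.0308). The KO change dropped to -0.32 without the unstimulated replicate 2 array (limma adjusted p = 0.427) and to -0.37 without the 4 h replicate 1 array (adjusted p = 0.339), and it also missed the threshold without either 24 h array (-0.68, adjusted p = 0.0541).

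Pax5 was the only member called higher at 4 h. Its probe was dim, from 6.65 to 7.53, but above background in every channel. In WT it read 6.65 and 6.96 without LPS and 7.32 and 7.36 at 4 h, and in KO 6.89 and 6.96 against 7.20 and 7.53, so that all 4 h channels were above all unstimulated ones. The change was 0.54 ± 0.16 in WT and 0.44 ± 0.16 in the RNA labelled KO (limma adjusted p = 0.0152 and 0.0408). With loess normalization alone, both missed the threshold (0.29 and 0.18, limma adjusted p = 0.299 and 0.574), and so did the KO change with the mean of both probes (0.22, adjusted p = 0.104). Without the unstimulated replicate 1 array the changes were 0.38 and 0.41 (limma adjusted p = 0.185 and 0.147), and without the 4 h replicate 2 array 0.51 and 0.28 (adjusted p = 0.0603 and 0.316). The KO call was also lost without the unstimulated replicate 2 array (0.48, limma adjusted p = 0.0865) or without either 24 h array (0.44, adjusted p = 0.0649). The second Pax5 probe was not well above background in any channel.

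Cr2, the complement receptor, differed widely between the replicates in WT at 4 h. In WT it read 9.55 and 10.28 without LPS and 9.11 and 10.38 at 4 h, a gap of more than 1 log2 unit between the 4 h arrays, and 9.27 and 9.41 at 24 h. In KO it read 10.25 and 10.19 without LPS, 9.70 and 9.24 at 4 h, and 9.75 and 9.59 at 24 h. On both 4 h arrays the Cy5 channel was the higher, at 9.70 (KO, replicate 1) and 10.38 (WT, replicate 2). The Cy3 channels read 9.11 and 9.24, so dye and replicate cannot be told apart in this gap. The 4 h changes of -0.17 ± 0.36 and -0.75 ± 0.36 did not pass (limma adjusted p = 0.801 and 0.135). The KO change passed with loess normalization alone (-1.21, limma adjusted p = 0.0312) or without the 4 h replicate 1 array (-0.98, adjusted p = 0.0352). Without that array the WT change from 4 h to 24 h also passed (-1.03, limma adjusted p = 0.034, against -0.40 with it).

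Counted together at 4 h, 3 members were lower and 1 higher in WT, and 6 were lower and 1 higher in the RNA labelled KO. Such calls were common on these arrays: 34.8% of all 36929 genes and transcripts were called in WT at 4 h (19.3% lower, 15.5% higher) and 36.0% in KO (19.8% lower, 16.2% higher). The median change of the members was -0.45 in WT and -0.89 in KO, where that of all genes was -0.00091 and 0.0014. At 24 h the members called were 2 in WT, both lower (30.5% of all genes called, 17% lower and 13.5% higher), and 1 in KO, also lower (28.7%, with 16% lower and 12.7% higher). The KO count of 1 at 24 h became 2 with the replicate block (29.9% of all genes called). At 1 h none was called in WT (8.51%, no member at an unadjusted p under 0.05) and none in KO (7.48%, 3 members at an unadjusted p under 0.05, as for 18% of all genes). With the replicate block, 1 was called in KO at 1 h, against 8.31% of all genes, and 6 in WT at 4 h, against 35.9%, and 3 in WT at 24 h, against 31.4%. From 4 h to 24 h, 3 rose in WT (29.7% of all genes called, 14.6% lower and 15.1% higher) and 4 in KO (30.8%, with 15.1% lower and 15.6% higher).

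Without the unstimulated replicate 2 array, only 4 members passed at 4 h in KO, all of them lower, against 30.2% of all genes. Without the unstimulated replicate 1 array, 4 passed at 24 h in either genotype, all lower, against 24.9% of all genes in WT and 23.4% in KO. In terms of separation alone, all 4 channels at 4 h lay below all 4 unstimulated channels for 5 members and above them for 1, where the same held for 22.8% and 19.5% of all genes. At 24 h it was 2 below and 2 above (21.6% and 17.7%), and at 1 h none (12.2% and 7.46%).

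**Figure D2:**
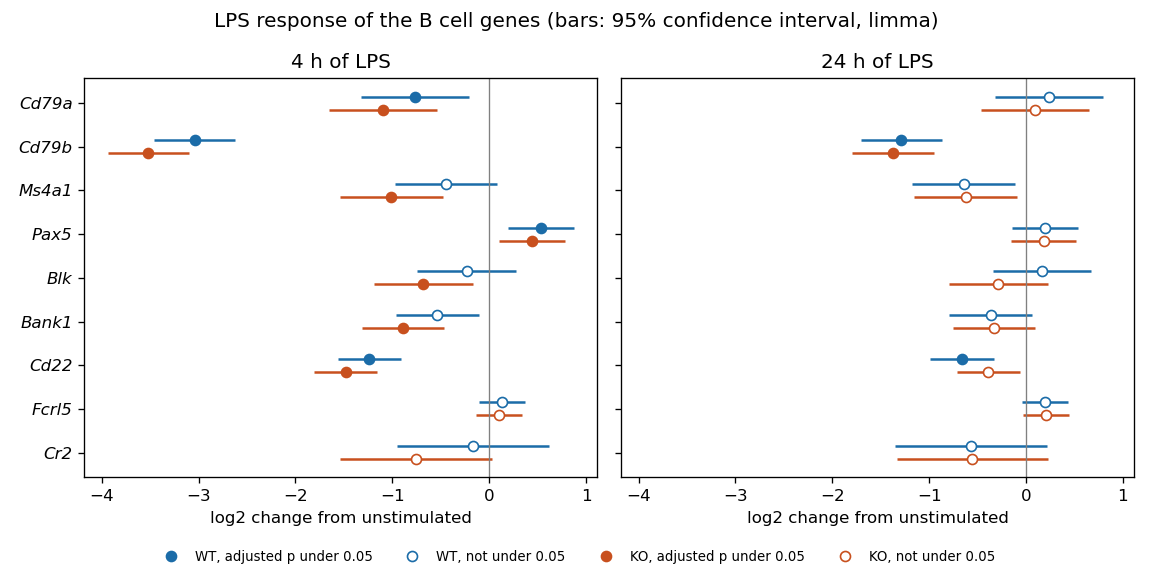
The log2 change of each member from unstimulated cells is plotted for 4 h (left) and 24 h (right) of LPS, WT in blue and KO in orange, with 95% confidence intervals from limma as bars and filled points where the adjusted p was under 0.05. Cd79b stands apart at -3.04 and -3.52 at 4 h, Pax5 lies to the right of 0, and at 24 h most intervals include 0.

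Whether furin deletion in myeloid cells changed the B cell genes was tested on the KO/WT ratio within each array. No member passed at any time point or in the mean over them. Over all genes 0%, 0%, 0.0135% and 0.0244% were called without LPS and at 1, 4 and 24 h, and 0.566% in the mean. Without adjustment, the p was under 0.05 for 1, 5, 0 and 2 members at the 4 time points and for 4 in the mean, where it was so for 5.78%, 5.48%, 4.30% and 3.43% of all genes at those times and for 3940 of 36949 in the mean.

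In the mean, Ms4a1 had the lowest p. Its log2 KO/WT ratio on replicates 1 and 2 was 0.21 and 0.44 without LPS, 0.68 and 0.28 after 1 h, -0.34 and -0.13 after 4 h, and 0.27 and 0.43 after 24 h. It was thus above 0 on 6 of 8 arrays, and below 0 on both arrays of 4 h, those on which Furin was not lower in the RNA labelled KO. Its mean was 0.23 (95% confidence interval 0.09 to 0.37, limma adjusted p = 0.173). Over the other 3 time points alone its mean was 0.39 (limma adjusted p = 0.0791), and with the labels of the 4 h arrays turned it was 0.35 (adjusted p = 0.224). No member passed in either of these fits, where 0.222% and 0% of all genes did. Bank1 had ratios of 0.0064 and 0.40, 0.60 and 0.43, -0.25 and -0.054, and 0.15 and 0.33, with a mean of 0.20 (0.07 to 0.34, limma adjusted p = 0.219). With the replicate number, and so the dye, as a block, both passed (limma adjusted p = 0.038 and 0.0434), as 2 members out of 9, where 5.99% of all genes passed in that fit.

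The mean ratios of the other members were smaller than 0.26 in size. Those of Cd79b and Cd22 were 0.15 (0.01 to 0.28) and 0.18 (0.03 to 0.34), with limma adjusted p-values of 0.402 and 0.366. Cd79a, Pax5, Blk, Fcrl5 and Cr2 had intervals that include 0, the narrowest for Fcrl5 (-0.14 to 0.12) and the widest for Cr2 (-0.19 to 0.70). The Cr2 ratios at 4 h were 0.59 and -1.14, opposite in sign on the 2 arrays, with the Cy5 channel the higher on both. For Cd79a the ratio was above 0 on 3 of the 4 arrays of replicate 1 and below 0 on all 4 of replicate 2.

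**Figure D3:**
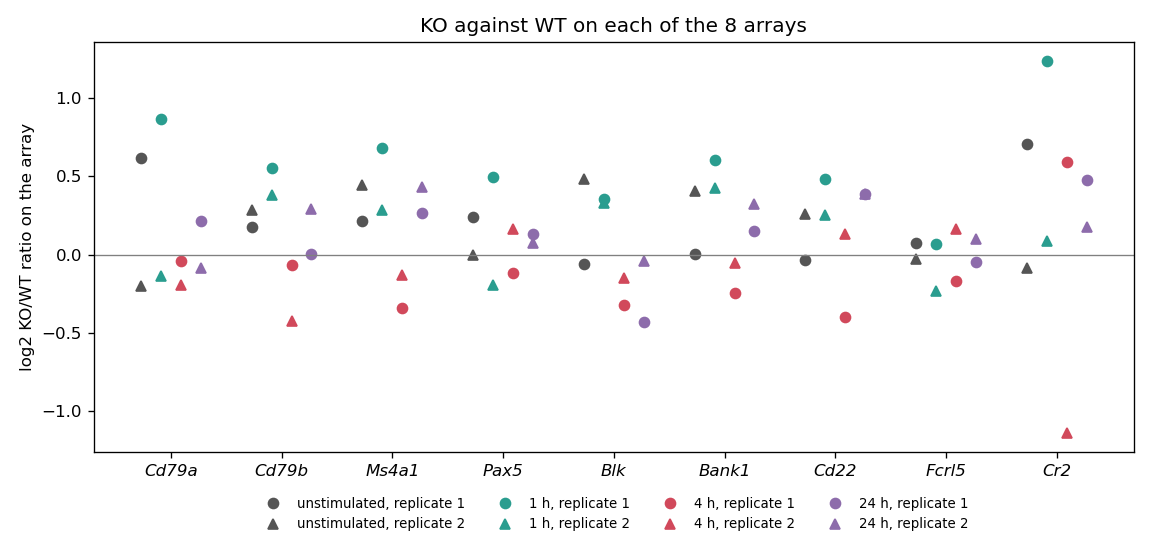
Each point is the log2 KO/WT ratio of 1 member on 1 of the 8 arrays, coloured by time point, with circles for replicate 1 (KO in Cy5) and triangles for replicate 2 (KO in Cy3). The 1 h points are mostly above 0 and the 4 h points mostly below it, and the 2 points of Cr2 at 4 h lie at 0.59 and -1.14.

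The LPS response was also compared between the genotypes, as the change of the KO/WT ratio from unstimulated cells. No member passed at 1, 4 or 24 h, and 0% of all genes did. Before adjustment, 2 members were under 0.05 at 4 h (2.9% of all genes) and none at the other times. Those were Ms4a1, at -0.56 (95% confidence interval -0.96 to -0.17, limma adjusted p = 1), and Cd79b, at -0.48 (-0.86 to -0.09, adjusted p = 1). For all 9 members the estimate at 4 h was below 0. This direction rests on the labels of the 4 h arrays: with those turned, 6 of 9 estimates were below 0, that of Ms4a1 was -0.093 and that of Cd79b 0.014. A fall called in one genotype and not in the other, as for Ms4a1, Bank1 and Blk, is therefore not shown to differ between them.

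The members were also compared between the replicate series. In the mean of both channels of an array, which does not depend on the dye orientation, all 9 members were higher on the replicate 2 arrays, by 0.39 for Ms4a1, 0.28 for Bank1 and Blk, 0.27 for Cd79b, 0.21 for Cr2, 0.19 for Cd79a, and 0.07, 0.06 and 0.05 for Pax5, Cd22 and Fcrl5. None passed (0.574% of all genes did), 5 were under 0.05 unadjusted (10.8% of all genes), and the lowest limma adjusted p was 0.074, for Ms4a1. Without either of the 24 h arrays 1 member passed, Ms4a1 at 0.47 (limma adjusted p = 0.0443). Over all 8 arrays, the T cell marker Lck was also higher on replicate 2, by 0.46 (limma adjusted p = 0.0485). The macrophage marker Fcgr1 (-0.55, adjusted p = 0.0485) and Selp of the large peritoneal macrophage list (-0.60, adjusted p = 0.0116) were lower. Each was the only marker of its list to pass, of 8, 6 and 4 tested. The medians of these lists were 0.20, -0.08 and -0.17. The part of cell makeup in the spread between replicates was not tested.

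The members were compared with one another over the 16 channels, as a description. The Pearson r of a member with the mean centred profile of the other 8 was 0.94 for Bank1, 0.90 for Cd22, 0.89 for Ms4a1, 0.86 for Cd79a and Cd79b, 0.84 for Blk and 0.60 for Cr2. It was -0.32 for Fcrl5 and -0.43 for Pax5. The channels share arrays in pairs and all follow 1 time course. Of 12754 other named genes detected in at least 8 channels, the 10 closest to the members' mean profile were Cd5 (r = 0.98), Ptprcap, 5830428M24Rik, Cd2, Nsmaf, Ets1, Gpr174, Jakmip1, S1pr4 and H2-DMb1, the last with r = 0.96. Cd5 is found on B-1 cells and on T cells. Cd2 stands in the T cell list used here, and which cells carried its RNA is not known from these arrays.

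Other B cell genes moved in both directions. Of 25 measured genes of a list of further B cell genes, 10 were lower and 10 higher at 4 h in WT and 11 lower and 8 higher in the RNA labelled KO, with medians of -0.10 and -0.28. Of all genes, 19.3% were lower and 15.5% higher in WT at 4 h, and 19.8% and 16.2% in KO. Immunoglobulin constant genes of that list (Ighd, Ighm, Igkc, Iglc1 and Iglc2) were not analysed here, since no probe matched them.

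The genes of that list that fell most at 4 h in WT were Fcrla, an intracellular relative of the Fc receptors in B cells (-2.86 in WT, -3.18 in KO), Siglecg, an inhibitory receptor of B-1 cells (-2.40 and -2.47), H2-Oa, which regulates peptide loading of MHC class II (-1.72 and -2.03), and Fcmr, the IgM Fc receptor (-1.70 and -2.04). Cxcr5, the chemokine receptor that guides B cells to follicles, rose by 1.96 in WT and 1.62 in KO. At 1 h it had already risen, by 1.51 and 1.64. In KO, Ralgps2 was among the 5 largest changes as well, at -1.93. All of these passed in both genotypes.

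At 24 h the list split again, with 9 lower and 9 higher in WT and 9 lower and 8 higher in KO. Of all genes, 17% were lower and 13.5% higher in WT at 24 h, and 16% and 12.7% in KO. Fcmr was lowest against the start (-2.49 in WT, -2.74 in KO), together with Fcer2a, the low-affinity IgE receptor CD23 (-1.78 and -1.82). Cd24a rose by 2.38 and 1.93, Tnfrsf13b, the receptor TACI that promotes antibody class switching, by 2.06 and 1.80, and Pou2af1, a B cell transcription co-activator, by 1.97 and 1.68. Each of these 5 passed in both genotypes.

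Most listed genes of antibody-secreting plasma cells rose by 24 h. Of the 9 on the list, 8 were detected, and 6 rose, none fell and 3 did not pass in each genotype, where 13.5% of all genes were higher in WT and 12.7% in KO, with medians of 1.07 in WT and 0.66 in KO against -0.016 and -0.015 over all genes. Derl3, which serves protein quality control in the endoplasmic reticulum, rose by 3.59 in WT and 3.13 in KO. Mzb1, an endoplasmic reticulum protein of B-1, marginal zone and plasma cells, read 12.54 and 12.87 in unstimulated WT cells, 10.93 and 10.65 at 4 h and 14.65 and 14.27 at 24 h. Its change was -1.91 at 4 h (limma adjusted p = 0.000156) and 1.75 at 24 h (adjusted p = 0.00044) in WT, and -2.32 and 1.46 in KO (adjusted p = 2.64e-05 and 0.00193). Prdm1, the transcription factor of plasma cells, which macrophages also express, was 1.42 and 1.58 above the start at 24 h, after 2.57 and 2.43 at 1 h. Irf4 was 1.40 and 1.39 above it at 24 h, after 2.44 and 2.15 at 4 h, and fell from 4 h to 24 h (-1.04 and -0.76). Xbp1 was 0.81 and 0.66 above the start. Xbp1, Irf4 and Prdm1 are not particular to B cells, and the cells that carried the change are not known from these arrays.

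Of 19 genes of B cell receptor signalling, 13 were lower at 4 h in both genotypes, and 5 were higher in WT and 4 in KO, with medians of -1.10 in each. Of all genes, 19.3% were lower and 15.5% higher in WT at 4 h, and 19.8% and 16.2% in KO. Inpp5d, the inhibitory lipid phosphatase SHIP1, fell (-3.47 in WT and -3.39 in KO), as did Dok3 (-2.41 and -2.50) and Vav1, an exchange factor (-1.86 and -2.08). Malt1, a protease of the pathway to NF-kB, rose by 3.20 and 3.14, and Pik3ap1, an adaptor for phosphoinositide 3-kinase, by 2.18 and 2.14. At 24 h, 7 of the 19 were lower in each genotype (17% of all genes in WT, 16% in KO). At that time 4 were higher in WT and 5 in KO (13.5% and 12.7%), with medians of -0.23 and -0.13. From 4 h to 24 h, 11 rose in each genotype (15.1% and 15.6% of all genes), and 4 fell in WT and 3 in KO (14.6% and 15.1%). Most of these genes, Inpp5d, Vav1, Lyn and Pik3ap1 among them, are also expressed in macrophages, so their values do not belong to B cells alone. Lyn was the only gene of the 4 lists past the threshold between the genotypes, with a mean KO/WT ratio of 0.35 ± 0.05 (limma adjusted p = 0.0298). With the labels of the 4 h arrays turned, 0% of all genes passed in the mean ratio, and Lyn did not.

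The 4 genes of the B-1 list all passed at 4 h in both genotypes, where 34.8% of all genes did in WT and 36% in KO. Cd5 fell (-1.49 in WT and -1.79 in KO), as did Bhlhe41 (-1.26 and -1.13) and Spn (-0.77 and -1.25), while Zbtb32 rose by 1.14 and 0.98. The WT change of Spn was -0.46 without the unstimulated replicate 2 array (limma adjusted p = 0.343) and -0.54 without the 4 h replicate 1 array (adjusted p = 0.264). That of Zbtb32 missed the threshold without the unstimulated replicate 1 array (0.84 in WT and 0.61 in KO, limma adjusted p = 0.0672 and 0.186) and, in KO, without the 4 h replicate 2 array (0.60, adjusted p = 0.222). At 24 h Zbtb32 was 1.97 and 2.23 above the start, Bhlhe41 was still lower (-0.45 and -0.44), and Spn had turned to 0.98 above the start in WT (limma adjusted p = 0.0112). The Bhlhe41 calls at 24 h were lost without the unstimulated replicate 2 array (-0.36 in WT, -0.30 in KO) or without either 24 h array (-0.50 and -0.39 in WT, -0.42 and -0.46 in KO), and that of Spn without the replicate 1 array of unstimulated cells (0.67) or of 24 h (0.82).

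**Figure D4:**
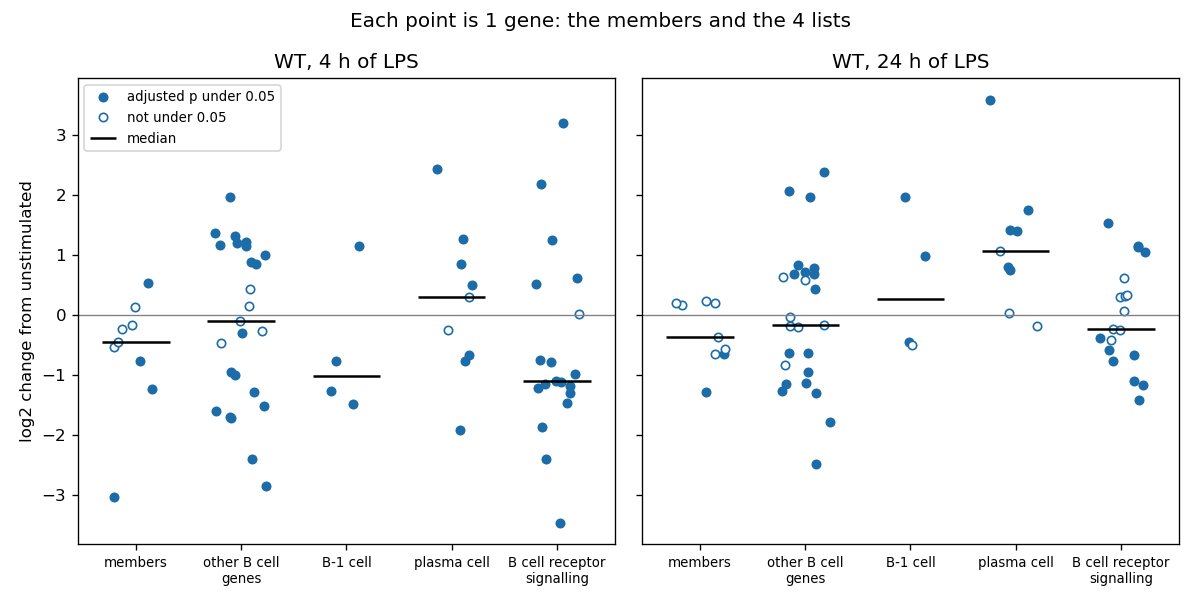
Each point is 1 gene in WT cells, placed by its log2 change from unstimulated cells at 4 h (left) and 24 h (right), for the 9 members and the 4 lists, with filled points where the limma adjusted p was under 0.05 and black bars at the medians. Members and B cell receptor signalling genes have medians below 0 at 4 h (-0.45 and -1.10), the further B cell genes spread to both sides, and plasma cell genes have a median of 1.07 at 24 h.

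Markers of other cells that a peritoneal wash can hold were read beside these values. The summed linear intensity of the 9 members was 66400.3 to 105969 over the unstimulated channels, 21818 to 31768 at 4 h and 40554 to 49967 at 24 h. This sum weighs the brightest probes most, Cd79b among them, and the mean log2 intensity of the members was 10.82 to 11.36 without LPS, 10.08 to 10.52 at 4 h and 10.69 to 10.87 at 24 h. The summed linear intensity of the 7 T cell markers detected, of 8 listed, was 11638 to 20229, then 6229 to 9907, and 9163 to 11151. In the test, 2 T cell markers were lower at 4 h in WT and 3 in the RNA labelled KO, and none was higher. The medians of the 8 listed were -0.38 and -0.85, with Cd2 at -1.77 and -2.20. For all marker counts here, 19.3% of all genes were lower at 4 h in WT and 19.8% in KO, and 15.5% and 16.2% were higher. At 24 h, 3 T cell markers were lower in WT and 4 in KO, where 17% and 16% of all genes were lower. Mast cell markers gave no call at 4 h in either genotype, with medians of 0.24 and 0.34, and 4 of 6 were lower at 24 h in both. Of 6 macrophage markers, 3 were lower and 1 higher at 4 h in both genotypes, with Csf1r at -1.29 and -1.59. All 4 markers of large peritoneal macrophages were detected, with 2 lower at 4 h in WT and 1 in the RNA labelled KO, and 3 lower at 24 h in both (medians -1.69 and -1.89). Between the genotypes, the macrophage markers Csf1r (mean KO/WT ratio -0.40, limma adjusted p = 0.0182) and Icam2 (0.34, adjusted p = 0.0268) passed, and no T cell marker did. Neither passed with the labels of the 4 h arrays turned. Markers of natural killer cells (2 of 4), dendritic cells (3 of 4), mesothelial cells, neutrophils (1 of 5 and 1 of 4) and eosinophils (1 of 3) were detected less completely. The part of the cell makeup in the LPS changes was not tested.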

How the data were processed

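RNA of mouse peritoneal cells of 2 genotypes and 4 time points was read on 8 Agilent arrays of 62976 spots, 2 per time point. Per the labels' processing notes, the authors extracted the scans with Agilent Feature Extraction 10.7.3 and normalized with limma. They deposited, per spot and dye, the raw median intensity, the software's processed signal and detection flags, which are intensities on a linear scale, and a table of log2 ratios of Cy5 to Cy3, used only as an alternative. That table's columns had a slope of 0.957 to 1.03 and an r of 0.987 to 0.996 against the ratios computed here, with column medians of 0.0030 to 0.0085, so its scale, centring and direction are known. Groups follow the sample titles, since the growth protocol names 4 h for every sample.

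Here, median intensities were corrected by normexp with an offset of 50, normalized by loess within and quantile between arrays (limma 3.58.1, R 4.3.3), and spots marked as outliers were left out. Repeat spots of 1 probe were averaged, and a gene was read by its brightest probe. Of 55681 gene probes, 27509 were named through RefSeq identifiers. Of 37020 genes and transcripts, 36949 had a mean log2 intensity of at least 6 and were tested. KO/WT ratios were fitted with lmFit and eBayes with a coefficient per time point, which leaves 4 residual degrees of freedom. LPS effects came from the separate-channel fit (36929 genes and transcripts, within-spot correlation 0.0976 on 5000 genes, statmod 1.5.0), and the replicate term from the array means. P-values were adjusted by Benjamini-Hochberg over everything tested, and the threshold was 0.05. An error is the standard error of the fit, and fold changes are 2 to the power of the log2 change. The fits were tested on simulated data with known changes. The simulated noise was independent between arrays, so this test does not show how a correlation between replicates would affect the p-values. The number of arrays limits the precision.

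Each time point has a replicate 1 and a replicate 2. The difference between replicates 1 and 2 correlated across genes between all 6 pairs of time points. The r was 0.475 to 0.679 for the ratio, 0.339 to 0.565 for WT, 0.214 to 0.336 for KO and 0.129 to 0.253 for array means. In the ratio, WT and KO values the replicates also differ in dye, so a dye effect and a pairing of samples cannot be told apart there. Only the array means do not depend on the dye orientation. The numbers were taken to pair the samples for an alternative only, and a fit with a replicate block was run beside each. The labels call the replicates biological and do not say what they share, so p-values measure the spread between these samples.

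All 9 members are named in every comparison. From 4 lists of further genes, up to 5 genes past the threshold with the largest change are named per comparison. The results of 1 listed gene are not reported here. The members and lists were chosen with earlier results of these data known. The change from 4 h to 24 h was added after seeing the data, as a contrast of the same fit. The letters of the EBF and NF-kB promoter motifs were shortened after a first search with longer forms. Alternatives were the background correction, the scaling, the dim-gene filters, the probe rule, outlier spots, the replicate block, the deposited ratios, the methods' t-test and leaving out each array, and, added after seeing the data, the 4 h labels turned and the 4 h arrays left out of the mean ratio.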

Additional observations from a re-analysis of the deposited data

How the results depend on the processing

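Of 1655 values of single members recomputed under the alternatives, 1539 kept their direction and their side of the threshold, 34 lost the call, 43 gained one and 39 changed sign, none of these 39 being called in either fit. Of 1314 values of named list genes, all of them LPS changes at 4 h or 24 h, 1298 stayed and 16 lost the call. The KO/WT ratio of Lyn is not in this count. The falls of Cd79b and Cd22 at 4 h in both genotypes, and those of Cd79a and Bank1 in KO, passed under every alternative run. The number of members called moved by over 1.5 times in these cases. With the software's processed signals, 3 passed in KO at 24 h (against 1, with 61.4% of all genes over the intensity limit called) and 1 in the replicate comparison (against 0, with 1.74%). Pax5 then fell under the intensity limit in the channel fit, and the median of all genes at 24 h was -0.12 in WT and -0.11 in KO, against -0.016 and -0.015. With loess alone, 2 passed in KO at 24 h (25% of all genes), 6 in WT and 7 in KO from 4 h to 24 h (against 3 and 4, with 28.1% and 28.5%) and 1 between the replicates (1.32%). With only genes well above background in at least 4 channels, 1 passed between the replicates (2.06%), and with the mean of all probes 2 in KO at 24 h (28%). With the replicate block, 2 passed in the mean KO/WT ratio (against 0), 1 in KO at 1 h (against 0) and 2 in KO at 24 h (against 1). In WT it called 6 at 4 h and 3 at 24 h, and it changed no other call of a member. The causes were not tested.

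Leaving out 1 array gave 3 to 4 members called in WT and 4 to 7 in KO at 4 h, 2 to 4 and 1 to 4 at 24 h, 0 to 1 in KO at 1 h, 1 to 3 in WT and 3 to 4 in KO from 4 h to 24 h, and 0 to 1 between replicates. KO against WT and the difference in response stayed at 0. By the methods' t-test, 0, 1, 0 and 1 members had an unadjusted p under 0.05 at the 4 time points, where 1694, 1755, 1128 and 1514 of 36933 to 36949 genes had, and no gene passed after adjustment.

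At 4 h Furin was not lower in the RNA labelled KO, with log2 KO/WT ratios of 0.0012 and 0.33, the former near 0 under either labelling. After seeing the data, the genotype labels of the 4 h arrays were therefore turned. Then 6 members passed in WT and 5 in KO at 4 h (36.3% and 34.7% of all genes), Ms4a1 (-0.68) and Bank1 (-0.68) gaining the call in WT and Pax5 (0.42) and Blk (-0.45) losing it in KO, and Bank1 lost its KO rise from 4 h to 24 h (0.41). The difference in response at 4 h became 0.014 for Cd79b, 0.022 for Blk and 0.020 for Cd22, and the change from 4 h to 24 h 0.038 for Ms4a1 in WT and -0.075 for Cr2 in KO.

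Other values changed sign as follows. With loess alone, Fcrl5 in KO at 4 h was -0.0073, and the change from 4 h to 24 h in WT 0.15 for Ms4a1 and 0.12 for Cr2. The mean ratio of Blk was -0.040 with processed signals, and the difference in response of Fcrl5 at 4 h was 0.0063 with the mean of probes. With 1 array left out, the KO/WT ratio at 1 h ran from -0.13 to 0.86 for Cd79a, -0.20 to 0.49 for Pax5 and -0.23 to 0.069 for Fcrl5, and the mean ratio from -0.047 to 0.089 for Blk and -0.050 to 0.032 for Fcrl5. The difference in response at 4 h ran from -0.74 to 0.083 for Cd79a, -0.23 to 0.046 for Pax5, -0.51 to 0.017 for Cd22, -0.19 to 0.14 for Fcrl5 and -1.45 to 0.28 for Cr2. At 4 h Cr2 in WT ran from -0.80 to 0.46 and Fcrl5 in KO from -0.031 to 0.24. At 24 h Cd79a ran from -0.15 to 0.62 in WT and -0.079 to 0.26 in KO, and in KO Blk from -0.65 to 0.081 and Bank1 from -0.69 to 0.028. From 4 h to 24 h Cr2 ran from -1.03 to 0.23 in WT and -0.030 to 0.43 in KO, and Fcrl5 in KO from -0.033 to 0.24. Between the replicates Cd22 ran from -0.035 to 0.11.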
